A study of Mus musculus with 16 samples.

Results

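Reads of 10 genes that mark the central macrophage of the erythroblastic island were counted in erythroid cells sorted from mouse foetal liver. The members were the rows of the count table that matched the symbols *Marco*, *Fcna*, *Cd5l*, *Mrc1*, *C1qa*, *C1qb*, *C1qc*, *Vcam1*, *Adgre1* and *Ctsh*, 10 of the 55416 genes listed, and all 10 were found. They were chosen by their low counts in *Nprl3*-/- erythroblasts at S3, so that for the members the comparison of *Nprl3*-/- with wild-type at S3 is given as a description, without a test. Read pairs were counted per gene in 16 libraries, with S1 and S3 cells from each of 8 foetal livers at E13.5. There were 4 wild-type (WT), 2 *Nprl3*+/- (Het) and 2 *Nprl3*-/- (KO) embryos. WT embryos 0 and 8, Het embryos 3 and 4 and KO embryo 9 were male, and WT embryos 1 and 5 and KO embryo 2 were female. The KO is constitutive, made by deleting the *Nprl3* promoter, so that every cell of the embryo carries it, macrophages included, and the mice were on a C57BL/6J background. Cells were sorted by Ter119 and CD71, S1 being the stage of erythroid progenitors (CFU-E) and S3 that of basophilic erythroblasts. The labels' source fields name an embryonic stem cell line, whereas the titles and the methods describe sorted foetal liver cells, and the latter description was used. The study's antibody panel for foetal liver erythroid cells also lists markers of other blood lineages, CD11b and Gr1 of myeloid cells among them. Whether these gated the cells sorted for RNA is not stated in the sources used here.

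In foetal liver, erythroblasts mature in islands around a central macrophage, which holds them by adhesion molecules such as Vcam1, which binds α4β1 integrin on the erythroblast. The macrophage supplies iron, takes up the nuclei that erythroblasts expel and digests their DNA. Its marker genes are known from macrophages rather than from erythroid cells. In bulk samples, fewer macrophages and less macrophage RNA per cell cannot be told apart.

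Levels are given as CPM, reads relative to a library size scaled by TMM, which lines up the bulk of genes between libraries. Library totals lay between 20666044 and 37609502 counts. A single read was worth 0.0206 to 0.0312 CPM at S1 and 0.0383 to 0.0689 CPM at S3, so that the members, with 1 to 377 reads per library, were measured close to the limit of the depth. The targeted gene, *Nprl3*, had 13 and 32 reads in the KO libraries at S1 against 881 to 1588 in WT and 452 and 605 in Het. At S3 it had 1730 and 2069 reads in KO and 2953 to 3883 in WT. The count covers the whole gene, and the study describes spliced transcripts that start at the α-globin enhancers inside *Nprl3*. The check of the labels therefore rests on the S1 libraries of the same embryos. The macrophage label held for some defining markers and not for others. *Adgre1*, which encodes F4/80, *Vcam1*, *Cd5l* and *Marco* had reads in all 16 libraries, as did *Spic*, the transcription factor of iron-recycling macrophages, and *Timd4*, a receptor for dying cells. In contrast, *Cd163*, the haemoglobin receptor, reached 0.0422 CPM at most, *Siglec1*, which encodes CD169, 0.278 CPM at most, and *Vsig4* was at 0 in all libraries, which at 3 reads allows up to 0.207 CPM in the shallowest library and covers counting error only.

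Marker genes of several cell types separated WT libraries at S1. The 10 neutrophil and granule genes summed to 117 and 205 CPM in WT embryos 8 and 0 and to 1158 and 1382 CPM in WT embryos 5 and 1, with 1568 to 1706 CPM in the Het and KO libraries. The 10 hepatoblast genes, of which *Afp* and *Trf* were the most abundant, showed the opposite order, with 339 and 366 CPM in WT embryos 8 and 0 and 29.0 to 182 CPM in the other S1 libraries. A sum of 6 erythroid genes, *Gata1* among them, was 1838 and 2224 CPM in WT embryos 0 and 8 and 1318 to 1436 CPM in the other S1 libraries. The counts and medians of the members that rest on the S1 libraries of WT embryos 0 and 8 are therefore given with and without them.

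**Figure D1:**
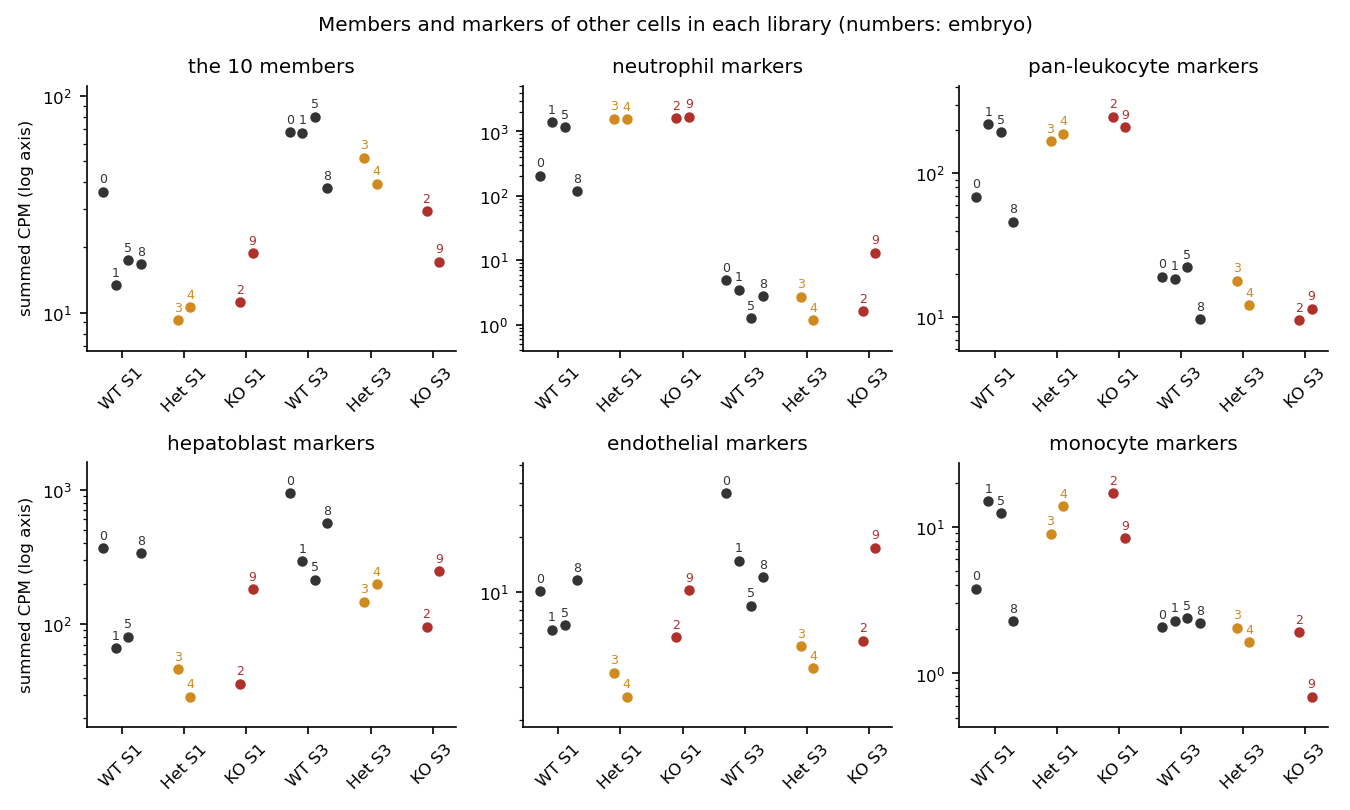
Summed CPM (log axes) of the 10 members and of marker genes of other cells in each of the 16 libraries, with a point per library and the number of the embryo above it, in WT (black), Het (orange) and KO (red). The 2 KO libraries at S3 sit at 17.2 and 29.4 CPM of the members, below the 4 WT libraries at 37.5 to 80.3 CPM, and WT embryos 0 and 8 stand apart from the other S1 libraries in neutrophil and hepatoblast markers.

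Of the 10 members, 6 were matched to a promoter in the RefSeq table (build GRCm38.p6), which gives 250 bases before to 50 after the start of the gene. *C1qa*, *Vcam1*, *Adgre1* and *Ctsh* were not. The 4 promoters below belong to *Marco* and *Fcna*, which were furthest below WT in KO at S3 without overlap among those matched, and to *C1qb* and *C1qc*, neighbouring genes whose levels varied together. Capitals mark the core bound by PU.1, the main myeloid transcription factor (GAGGAA on either strand), and a MAF half-site (TGCTGA on either strand); the GATA core (AGATAA on either strand), bound by the erythroid factor GATA1, was searched in the same way.
Marco, chr1:120504975-120505274, minus strand: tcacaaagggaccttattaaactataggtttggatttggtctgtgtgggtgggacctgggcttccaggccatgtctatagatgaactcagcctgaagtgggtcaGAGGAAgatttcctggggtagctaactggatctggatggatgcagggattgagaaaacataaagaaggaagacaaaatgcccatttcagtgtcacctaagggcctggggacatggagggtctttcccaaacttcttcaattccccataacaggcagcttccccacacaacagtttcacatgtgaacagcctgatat
Fcna, chr2:25627925-25628224, minus strand: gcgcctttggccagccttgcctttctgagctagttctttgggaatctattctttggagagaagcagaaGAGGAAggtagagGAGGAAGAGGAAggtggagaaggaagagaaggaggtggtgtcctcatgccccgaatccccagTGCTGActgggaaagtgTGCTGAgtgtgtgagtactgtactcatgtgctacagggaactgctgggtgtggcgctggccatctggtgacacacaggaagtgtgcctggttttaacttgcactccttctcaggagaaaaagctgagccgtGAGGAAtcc
C1qb, chr4:136886151-136886450, minus strand: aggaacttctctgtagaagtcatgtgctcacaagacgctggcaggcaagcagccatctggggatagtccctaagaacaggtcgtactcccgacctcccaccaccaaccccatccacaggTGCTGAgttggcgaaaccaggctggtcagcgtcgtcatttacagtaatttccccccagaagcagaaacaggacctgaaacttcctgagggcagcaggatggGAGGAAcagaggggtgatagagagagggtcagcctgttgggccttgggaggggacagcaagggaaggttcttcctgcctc
C1qc, chr4:136892865-136893164, minus strand: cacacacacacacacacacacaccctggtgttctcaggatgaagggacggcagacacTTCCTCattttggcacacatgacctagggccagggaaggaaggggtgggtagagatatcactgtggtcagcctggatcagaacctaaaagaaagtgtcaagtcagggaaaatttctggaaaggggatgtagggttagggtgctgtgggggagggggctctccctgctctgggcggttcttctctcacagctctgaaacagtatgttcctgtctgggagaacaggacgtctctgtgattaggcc

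The PU.1 core was found in all 6 matched promoters, against 28.3% of 32851 promoters of the same length in the table, from which a chromosome was left out. *Marco*, *C1qb*, *C1qc* and *Cd5l* held 1 copy, *Mrc1* held 3 and *Fcna* held 4, of which 2 lay directly next to each other. The MAF half-site was found in 3 of the 6 (*Fcna*, *C1qb* and *Cd5l*), against 19.5% of these promoters. AGATAA, the only form of the GATA core that was searched, was found in 0 of the 6, against 11.2%. Other forms of the GATA core were not searched, so these promoters cannot be said to lack it. Marked stretches do not overlap. A match describes the letters in the window and not a bound site.

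In WT erythroblasts at S3, the members ranked by level per kilobase of exon from *C1qb* at 9.90 ± 4.11 CPM per kb (SD, n = 4) to *Mrc1* at 0.187 ± 0.209 CPM per kb. *Fcna* (5.65 ± 1.07), *Cd5l* (4.83 ± 1.599) and *C1qc* (4.18 ± 1.66 CPM per kb) followed *C1qb*. *Marco* (2.60 ± 0.615), *Adgre1* (2.40 ± 1.20) and *C1qa* (2.30 ± 0.657 CPM per kb) came next, and *Ctsh* (0.934 ± 0.192) and *Vcam1* (0.719 ± 0.144 CPM per kb) preceded *Mrc1*. Of the 9 pairs of neighbours in this order, 7 overlapped in their range over the 4 libraries, and the gaps lay between *C1qa* and *Ctsh* and between *Vcam1* and *Mrc1*. The order depends on the exon lengths listed with the counts, 1040 bases in *C1qa*, 4499 in *Ctsh* and 8870 in *Vcam1*. Before division by length, *Ctsh* (4.20 CPM) and *Vcam1* (6.4 CPM) were above *C1qa* (2.39 CPM) on average.

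**Figure D2:**
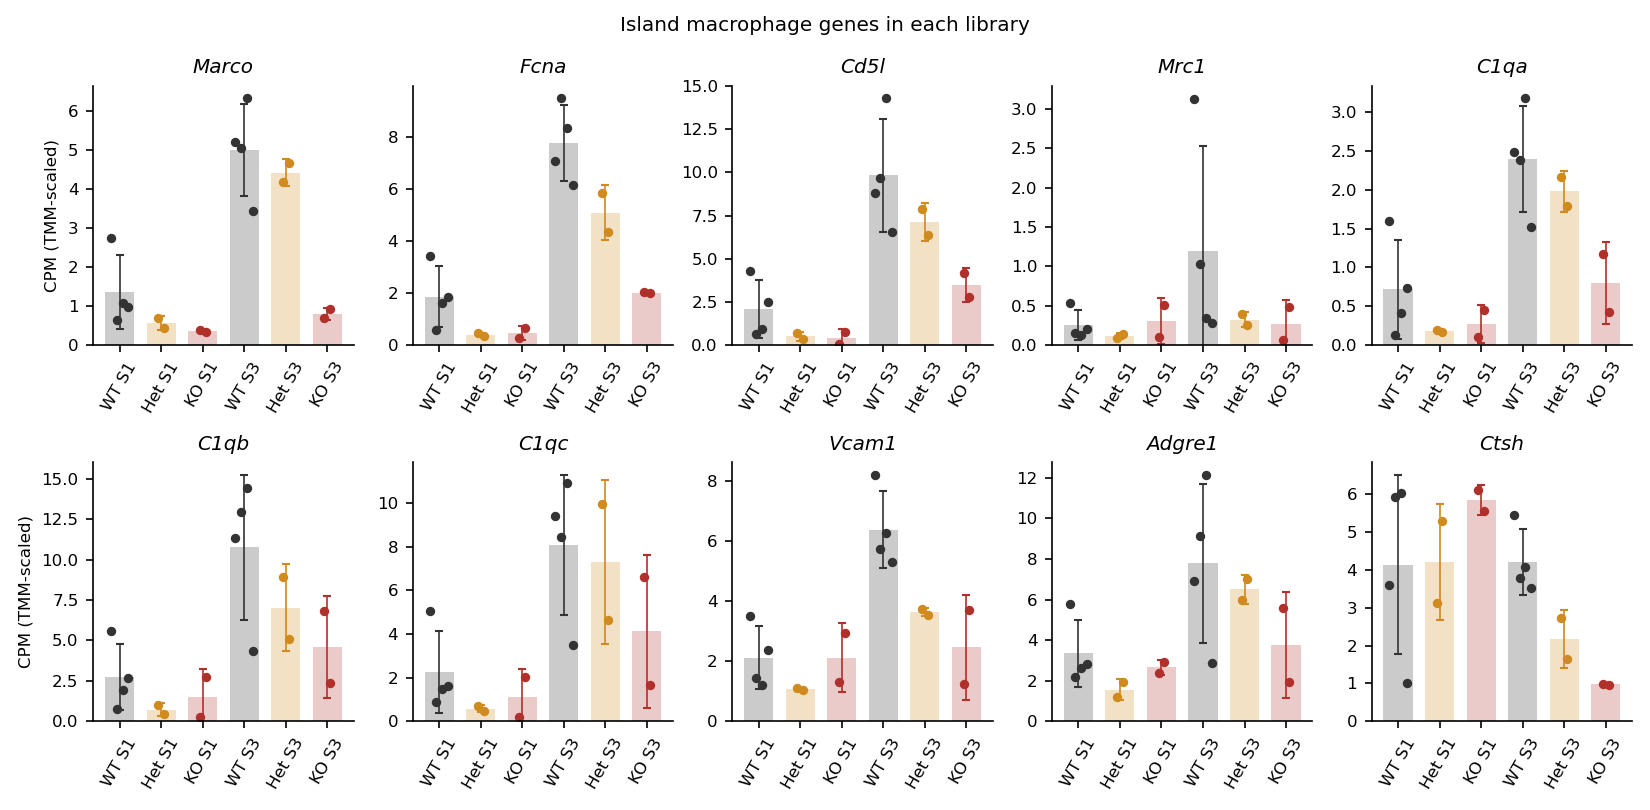
CPM of each member (TMM-scaled, linear axes from 0) in WT (black), Het (orange) and KO (red) libraries at S1 and S3, with a point per library, bars for the group mean and error bars for the SD (n = 4, 2 and 2). *Marco*, *Fcna*, *Cd5l*, *C1qa*, *Vcam1* and *Ctsh* show no overlap between KO and WT at S3, and *Ctsh* is the only member with about the same mean at both stages in WT (4.13 and 4.20 CPM).

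The scavenger and pattern recognition genes held the largest difference between KO and WT at S3. *Marco* encodes a class A scavenger receptor that binds bacteria and particles. It lies at chr1:120402267-120432753 on the minus strand (mm39, as for all positions of members). Its level at S3 was 5.20, 5.05, 6.32 and 3.45 CPM in WT embryos 0, 1, 5 and 8, 4.17 and 4.66 CPM in Het embryos 3 and 4, and 0.678 and 0.909 CPM in KO embryos 2 and 9. Both KO libraries, with 11 and 17 reads, lay far below the lowest WT library, while the Het libraries lay within the WT range. The log2 fold change of KO against WT was −2.58 (standard error 0.35).

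*Fcna* encodes ficolin A, a lectin that starts the lectin pathway of complement, and lies at chr2:25514678-25518042 on the minus strand, overlapped by the antisense gene *Fcnaos* with 270 reads over the 16 libraries. Strand was not used in the counting, and reads in the part shared by both genes overlap more than 1 gene and were not counted for either. The level of *Fcna* at S3 was 7.06, 9.49, 8.35 and 6.14 CPM in WT embryos 0, 1, 5 and 8, 5.83 and 4.35 CPM in Het embryos 3 and 4, and 2.03 and 1.98 CPM in KO embryos 2 and 9. All KO libraries were below all WT libraries (log2 fold change −1.89, standard error 0.26).

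*Cd5l* encodes a secreted scavenger protein of tissue macrophages and lies at chr3:87265188-87278380 on the plus strand. At S3 it had 8.79, 9.67, 14.3 and 6.55 CPM in WT embryos 0, 1, 5 and 8, 7.89 and 6.35 CPM in Het embryos 3 and 4, and 4.19 and 2.78 CPM in KO embryos 2 and 9. The KO libraries were again the 2 lowest (log2 fold change −1.44, standard error 0.34). *Mrc1*, the mannose receptor of macrophages and of sinusoidal endothelium, lies at chr2:14234203-14336868 on the plus strand and was an exception. Its level at S3 was 3.13 CPM in WT embryo 0, 1.03 CPM in WT embryo 1, and between 0.0616 and 0.481 CPM in the other 6 libraries, so that KO and WT overlapped (log2 fold change −2.02, standard error 1.15). WT embryo 0 also had the highest sum of the 9 endothelial markers at S3, at 35.1 CPM against 3.84 to 17.6 CPM in the other libraries, with *Lyve1* at 9.42 CPM. The part of endothelial RNA in the level of *Mrc1* was not tested.

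*C1qa*, *C1qb* and *C1qc* encode the 3 chains of C1q, the recognition protein of the classical complement pathway, which macrophages secrete. They lie within 18675 bases at chr4:136607440-136626114, all on the minus strand. At S3 the 3 genes summed to 23.2, 23.8, 28.6 and 9.37 CPM in WT embryos 0, 1, 5 and 8, to 21.1 and 11.6 CPM in Het embryos 3 and 4, and to 14.6 and 4.44 CPM in KO embryos 2 and 9. KO embryo 2 lay above WT embryo 8, so that *C1qb* (log2 fold change −1.18, standard error 0.52) and *C1qc* (−0.93, standard error 0.56) overlapped between the genotypes. *C1qa*, with 8 and 19 reads in KO and 22 to 83 in WT, did not (−1.54, standard error 0.48).

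Of the surface genes, *Vcam1*, at chr3:115903598-115923337 on the minus strand, encodes the ligand for α4β1 integrin on the erythroblast. It had 8.20, 5.75, 6.25 and 5.31 CPM in WT embryos 0, 1, 5 and 8 at S3, 3.72 and 3.53 CPM in Het embryos 3 and 4, and 1.23 and 3.69 CPM in KO embryos 2 and 9. All WT libraries were above all others, and KO embryo 9 lay between the Het embryos (log2 fold change of KO against WT −1.30, standard error 0.41). WT embryo 0, the library with the highest endothelial sum at S3, also had the highest level of *Vcam1*. The part of endothelial RNA in the level of *Vcam1* was not tested. *Adgre1*, at chr17:57665691-57790527 on the plus strand, encodes F4/80, the surface protein by which mouse tissue macrophages are commonly stained. It had 6.93, 9.16, 12.2 and 2.90 CPM in WT embryos 0, 1, 5 and 8, 6.001 and 7.01 CPM in Het embryos 3 and 4, and 5.61 and 1.93 CPM in KO embryos 2 and 9. Here KO embryo 2 was well within the WT range (log2 fold change −0.9998, standard error 0.56).

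*Ctsh*, at chr9:89936205-89958142 on the plus strand, encodes cathepsin H, a lysosomal aminopeptidase that is less specific to macrophages than the other members. At S3 it had 5.45, 3.79, 4.06 and 3.52 CPM in WT embryos 0, 1, 5 and 8, 2.72 and 1.64 CPM in Het embryos 3 and 4, and 0.986 and 0.962 CPM in KO embryos 2 and 9. The 3 genotypes did not overlap, with Het in between (log2 fold change of KO against WT −2.05, standard error 0.32).

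All 10 members passed the filter on low counts at S3 and were lower in KO on average, with a median log2 fold change of −1.49 against 0.0072 over all 11804 genes tested. In 6 of the 10 both KO libraries were below all WT libraries, where 12.1% of all genes showed this order. Since these values chose the members, nothing is read from either count. Without KO embryo 2 the median was −1.999. KO embryo 9 was the lowest of the 8 S3 libraries for 7 members and KO embryo 2 for the other 3, which were *Marco*, *Mrc1* and *Vcam1*.

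The KO embryos differed at S3 in the proportions of the members, which do not depend on the scaling. In KO embryo 2 there were 0.0991 reads of *Marco* for each read of *C1qb*, and in KO embryo 9 there were 0.386, where the WT libraries had 0.390 to 0.794. For *Fcna* the same ratio was 0.297 in KO embryo 2 and 0.841 in KO embryo 9, against 0.578 to 1.41 in WT. KO embryo 2 thus had *C1qb* and *C1qc* levels within the WT range with few reads of *Marco* and with *C1qa* below WT, whereas KO embryo 9 was the lowest library for all 3 C1q genes. At S1 the KO embryos had the opposite order, with 1.455 reads of *Marco* and 1.0 of *Fcna* for each read of *C1qb* in KO embryo 2, which had 11 reads of *C1qb*, and 0.123 and 0.231 in KO embryo 9. Within C1q there were 0.833 to 1.67 reads of *C1qb* for each read of *C1qc* over all 16 libraries, and 2.5 to 6.19 for each read of *C1qa*.

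To see how other genes of this macrophage behaved, 56 further genes were listed by role, of which 37 passed the filter at S3. These genes were not used to choose the members but were measured in the same libraries and the same comparison, so that their counts are no independent support. Their median log2 fold change in KO against WT was −0.95, and 33 of the 37 were below 0, where 49.0% of all genes were. Only *Lyz2*, lysozyme of myeloid cells, passed the test, against 0.102% of all genes that were called lower. It fell from 14.6 CPM in WT to 4.34 CPM in KO (log2 fold change −1.68, standard error 0.28, Benjamini-Hochberg adjusted p = 0.0458 by the quasi-likelihood test of edgeR), and this call was lost without any 1 of the 6 libraries compared and with 4 of the other settings. DESeq2 called 6 of the 37 lower and the fit with sex as a covariate 8. How many of all genes these 2 fits called was not counted, so the larger counts are not read as a result. At an unadjusted p under 0.05, 14 of the 37 were lower and 0 higher, where 4.31% of all genes were lower.

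By role, these 14 were 5 of 11 receptors and surface genes, 3 of 5 iron and haem genes, 2 of 5 engulfment genes, 2 of 6 transcription factors, 1 of 7 lysosomal genes and 1 of 3 complement and lectin partners. The 3 iron and haem genes were *Hmox1*, *Slc11a1* and *Slc48a1*. *Hmox1*, haem oxygenase 1, had 9.18 and 10.0 CPM in KO and 19.2 to 34.6 CPM in WT, with 16.7 and 21.8 CPM in Het (log2 fold change of KO against WT −1.36, standard error 0.25, adjusted p = 0.0678 in edgeR). *Slc11a1*, a metal transporter of the phagosome, had 0.0535 and 0.4931 CPM in KO, from 1 and 8 reads, and 0.758 to 3.25 CPM in WT (−3.12, standard error 0.81, adjusted p = 0.209 in edgeR). *Slc48a1*, a haem transporter, had 687.6 and 709 CPM in KO and 828.5 to 1039 CPM in WT (−0.34, standard error 0.15, unadjusted p = 0.0499 and adjusted p = 0.586 in edgeR). *Slc40a1*, the iron exporter ferroportin, was not among the 3, with 103.9 and 111 CPM in KO and 121 to 149 CPM in WT (−0.30, standard error 0.14, unadjusted p = 0.0628 in edgeR). Of the engulfment genes, *Timd4* had 0.740 and 0.802 CPM in KO against 1.24 to 2.96 CPM in WT (−1.49, standard error 0.42, edgeR adjusted p = 0.252). *Mertk*, a receptor for dying cells, did not pass the filter. *Dnase2a*, the nuclease that digests engulfed nuclei, was not lower, with 51.7 and 54.6 CPM in KO and 39.7 to 52.5 CPM in WT (0.33, standard error 0.16).

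Of the receptors and transcription factors, *Cd68*, a lysosomal glycoprotein, had 1.34 and 1.48 CPM in KO against 2.76 to 5.25 CPM in WT (−1.34 on the log2 scale, standard error 0.34, adjusted p = 0.195 by edgeR). *Csf1r*, the receptor on which most tissue macrophages depend, overlapped between the genotypes, with 0.909 and 3.33 CPM in KO and 2.62 to 5.06 CPM in WT (−0.95, standard error 0.49). *Spic* overlapped as well, with 1.07 and 4.44 CPM in KO and 2.55 to 7.55 CPM in WT (−0.69, standard error 0.57). Several of the 56 genes are also expressed by erythroblasts, among them *Slc40a1*, *Slc48a1* and *Dnase2a*, so that the list is not a measure of macrophages alone.

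Markers of other cells were compared at S3 as well. The 10 hepatoblast genes summed to 96.0 and 248 CPM in KO, 147 and 199 CPM in Het and 214 to 942 CPM in WT, and their median log2 fold change in KO against WT was −1.43, with 0 of 10 past the threshold in edgeR, 6 at an unadjusted p under 0.05 and 4 with no overlap. *Afp* had 25.9 and 98.1 CPM in KO and 62.9 to 393 CPM in WT. The 8 endothelial genes tested had a median of −0.38, with 0 past the threshold, and were split in direction. *Oit3* (−1.93), *Stab2* (−1.75) and *Lyve1* (−1.41) were lower in KO, and *Emcn* (1.91) and *Pecam1* (1.29) higher. The rest lay between −0.75 in *Clec4g* and 0.056 in *Kdr*. *Emcn* had 0 and 37 reads in the KO libraries. The 5 pan-leukocyte genes tested, of which *Coro1a* and *Laptm5* were the most abundant over both stages, had a median of −0.65, with 0 past the threshold. Of the 6 monocyte genes 2 passed the filter, and of the 10 neutrophil genes 2, *Mpo* and *Ngp*, the latter with reads in KO embryo 9 alone at S3. The 6 erythroid genes summed to 17730 and 20820 CPM in KO, 18940 and 22140 CPM in Het and 18850 to 29270 CPM in WT. The part of these cells, and of the stage of the erythroblasts, in the levels of the members was not tested.

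On the erythroblast side of the island, 7 of 8 listed genes were tested at S3, with a median log2 fold change of −0.0060 in KO against WT and 0 past the threshold in edgeR. *Itga4*, the α4 chain of the integrin that binds Vcam1, had 83.1 and 122 CPM in KO and 98.7 to 139 CPM in WT. *Itgb1*, its β1 chain, had 149 and 152 CPM in KO and 96.4 to 113 CPM in WT, with no overlap. *Maea*, the erythroblast-macrophage attachment protein, had 73.1 and 77.6 CPM in KO and 76.5 to 81.3 CPM in WT. *Icam4*, an integrin ligand of erythroblasts, was listed at 0 in all libraries. It lies wholly inside *Gm47079* on the other strand (chr9:20939603-20943653), and reads that overlapped more than 1 gene were not counted.

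The comparison of Het with WT at S3 used the same WT libraries that had a part in the choice of the members, so that its values for the members are a description and nothing is read from their counts. Of the 10 members, 0 passed the correction over 11746 genes, where 0.0% of all genes did, in edgeR and in DESeq2 alike. At an unadjusted p under 0.05 edgeR had 3 of 10 and DESeq2 4, where edgeR had 2.38% of all genes lower. These 3 were *Vcam1* (log2 fold change −0.76, standard error 0.24), *Ctsh* (−0.90, standard error 0.30) and *Fcna* (−0.55, standard error 0.23), each with both Het libraries below all WT libraries, an order found in 12.5% of all genes. *Marco* (−0.13, standard error 0.25) and *C1qc* (−0.10, standard error 0.41) differed by less than the spread between embryos. The median over the members was −0.48, against −0.019 over all genes. Both Het embryos were male. The endothelial sum was 3.84 and 5.06 CPM in Het and 8.43 to 35.1 CPM in WT, and of the 10 hepatoblast genes 7 had an unadjusted p under 0.05, with 0 past the threshold. With sex as a covariate 2 members, *Vcam1* and *Ctsh*, were called and the median was −0.13. The share of all genes called in that fit was not counted.

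**Figure D3:**
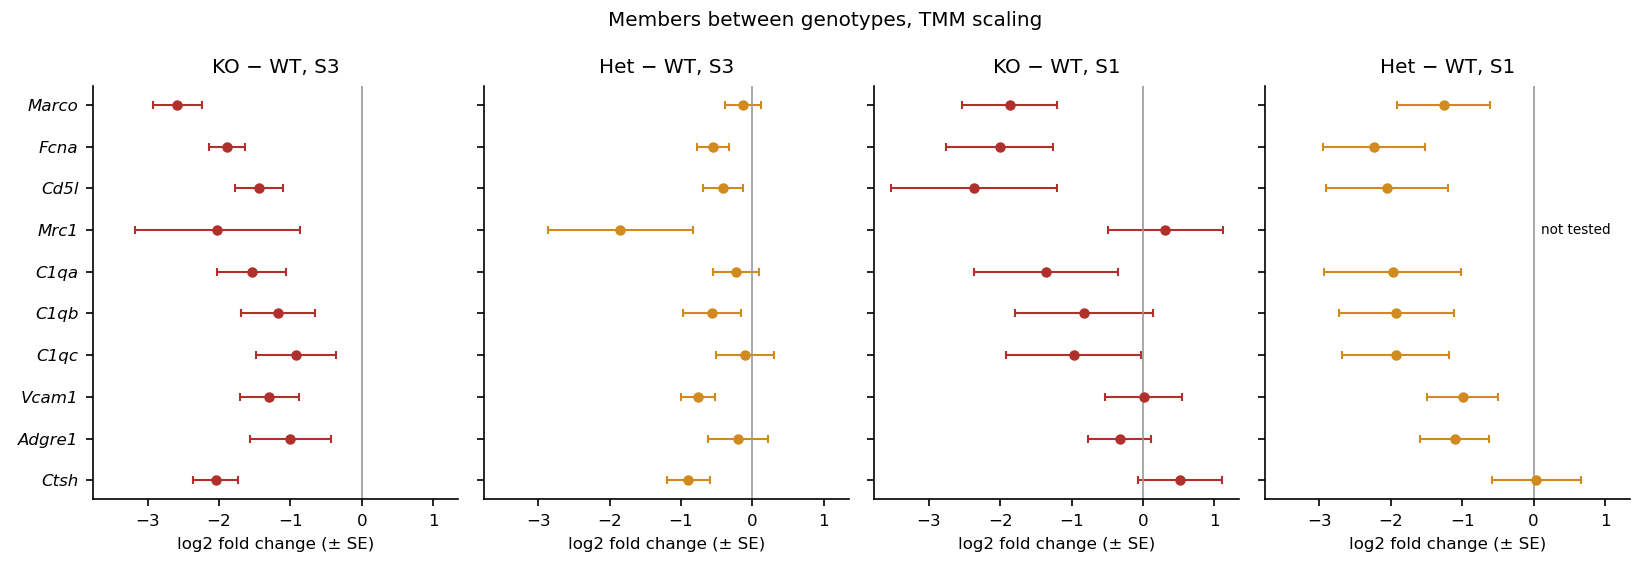
Log2 fold changes of the 10 members (points) with their standard errors (bars) for KO (red) and Het (orange) against WT at S3 and S1, from fits across all genes; the KO comparison at S3 chose the members. All 10 points lie below 0 in KO at S3, and *Marco* is at −2.58 in KO and −0.13 in Het at S3.

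At S1, where no library had been used to choose the members, KO and WT were compared over 14039 genes. Of the 10 members, 0 passed the correction in edgeR and 0 in DESeq2, where edgeR called 0.00712% of all genes, and all adjusted p were 0.9997. At an unadjusted p under 0.05 edgeR had 2 of 10 and DESeq2 3, where edgeR had 0.662% of all genes lower. *Marco* had 0.393 and 0.338 CPM in KO, 0.690 and 0.431 CPM in Het, and 2.75, 0.631, 1.07 and 0.966 CPM in WT embryos 0, 1, 5 and 8. The KO libraries were the 2 lowest (log2 fold change −1.87, standard error 0.67), the only member with this order, which 3.75% of all genes had. *Fcna* had 0.270 and 0.634 CPM in KO and 0.580 to 3.40 CPM in WT, which overlapped (−2.01, standard error 0.75). *Cd5l* had a single read in KO embryo 2, and 0.760 CPM in KO embryo 9 against 0.656 to 4.31 CPM in WT (−2.37, standard error 1.16).

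The remaining members overlapped between KO and WT at S1. The 3 C1q genes summed to 0.589 CPM in KO embryo 2 and 5.22 CPM in KO embryo 9, with 1.79 to 12.2 CPM in WT. *Vcam1* (0.0099, standard error 0.54), *Adgre1* (−0.33, standard error 0.44), *Ctsh* (0.52, standard error 0.59) and *Mrc1* (0.31, standard error 0.80) differed by less than their standard errors. The median over the members was −0.90. It was −0.016 without WT embryos 0 and 8, with 9 members tested, 0 past the correction and 1 at an unadjusted p under 0.05, −0.17 without KO embryo 2 and −2.78 without KO embryo 9. WT embryo 0 had the highest level of 9 of the 10 members at S1. The 43 other macrophage genes tested had a median of 0.15, with 0 past the threshold and 1 at an unadjusted p under 0.05 in edgeR (0 and 4 in DESeq2). The 1 gene in edgeR was *Csf1r*, which was higher in KO (log2 fold change 0.76, standard error 0.28). It had 8.07 and 8.22 CPM in KO and 3.51 to 6.21 CPM in WT. Without WT embryos 0 and 8 the median over 38 of the other macrophage genes was 0.24, with the same counts in edgeR.

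In Het against WT at S1, 9 members passed the filter (*Mrc1* did not) and 0 passed the correction over 13818 genes in edgeR or DESeq2, where 0.0% of all genes did. At an unadjusted p under 0.05 edgeR had 4 of 9 and DESeq2 6, where edgeR had 3.97% of all genes lower. The 4 were *Fcna* (log2 fold change −2.24, standard error 0.71), *C1qc* (−1.93, standard error 0.75), *Cd5l* (−2.05, standard error 0.85) and *C1qb* (−1.92, standard error 0.80). Both Het libraries were below all WT libraries in 4 of 9 members, *Fcna*, *C1qc*, *Vcam1* and *Adgre1*, where 9.3% of all genes showed this. The median was −1.92, and −0.62 without WT embryos 0 and 8, with 0 of 8 past the correction and 2 at an unadjusted p under 0.05, and −1.17 without WT embryo 0 alone. With sex as a covariate 2 members, *Fcna* and *Cd5l*, passed the threshold, and nothing is read from this, as the share of all genes passing in that fit was not counted. The hepatoblast sum was 29.0 and 46.5 CPM in Het and 66.2 to 366 CPM in WT, and the endothelial sum 2.67 and 3.62 CPM against 6.23 to 11.6 CPM. The part of these cells in the levels of the members was not tested.

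Between the stages, the members other than *Ctsh* were higher on average at S3 on the TMM scale in WT and, where tested, in Het. The WT libraries at S3 had a part in the choice of the members, so that the values in WT are a description. Of 13514 genes fitted in edgeR 30.6% were called higher, as were 9 of the 10 members, and nothing is read from this count. *Cd5l* went from 2.10 ± 1.68 to 9.83 ± 3.26 CPM (SD, n = 4), *Fcna* from 1.85 ± 1.17 to 7.76 ± 1.47 CPM and *C1qb* from 2.73 ± 2.04 to 10.8 ± 4.47 CPM. Their log2 fold changes were 2.29 (standard error 0.53), 2.13 (standard error 0.43) and 2.04 (standard error 0.54). *Adgre1* differed least of the 9 (1.27, standard error 0.43). There were 6 calls without the S1 library of WT embryo 5, 7 without the S1 library of embryo 1 or the S3 library of embryo 5, and 8 without the S3 library of embryo 0 or 1, while without both S1 libraries of WT embryos 0 and 8 there were 9, with a median log2 fold change of 2.88 against 1.93 with all 8 libraries. All 9 were higher at S3 in 4 of 4 embryos, and *Marco*, *Fcna*, *Cd5l* and *Vcam1* did not overlap between the stages, which 27.6% of all genes did upwards. *Ctsh* had 4.13 ± 2.37 CPM at S1 and 4.20 ± 0.861 CPM at S3 (0.10, standard error 0.46), higher at S3 in WT embryos 0 and 8 and lower in 1 and 5.

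The size of this difference depends on the scaling. TMM factors were 1.29 to 1.51 at S1 and 0.691 to 0.813 at S3. Scaling by the total count alone moved all genes by a median of −1.02 between the stages in WT. The members then had a median of 0.92 where the median gene had −1.12, and 1 of 10, *Fcna*, was called (1.10). A change of scaling moves all genes together, so it cannot change the place of the members relative to the median gene. Nothing is read from that order.

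In Het, whose libraries were not used to choose the members, 8 of 9 members rose between S1 and S3 and *Ctsh* fell, where 36.3% of the 13085 genes tested rose and 39.6% fell. The median was 3.35, with log2 fold changes of 3.88 (standard error 0.33) in *Cd5l*, 3.78 (standard error 0.35) in *Fcna*, 3.71 (standard error 0.35) in *C1qc*, 3.06 (standard error 0.34) in *Marco* and 1.87 (standard error 0.31) in *Vcam1*. *Ctsh* went from 3.12 and 5.29 CPM to 2.72 and 1.64 CPM (−0.82, standard error 0.31, edgeR adjusted p = 0.0197), a call that was lost without either library of Het embryo 4, with DESeq2 and with all 16 libraries in the fit. In the same libraries the sum of the 6 pan-leukocyte genes went from 167 and 188 CPM to 17.95 and 12.2 CPM and that of the neutrophil genes from 1575 and 1568 CPM to 2.72 and 1.18 CPM, and the part of these cells in the level of *Ctsh* was not tested. With the total count as the scale, 9 of 9 calls and their directions were kept, with a median of 2.36.

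In KO the S3 libraries had chosen the members, so that these values are a description. *Marco* went from 0.393 to 0.678 CPM in KO embryo 2 and from 0.338 to 0.909 CPM in embryo 9 (log2 fold change 1.21, standard error 0.56). *Ctsh* went from 6.11 to 0.986 CPM and from 5.56 to 0.962 CPM (−2.49, standard error 0.33). The embryos differed in C1q, which summed to 0.589 CPM at S1 and 14.6 CPM at S3 in embryo 2 and to 5.22 and 4.44 CPM in embryo 9. *Mrc1* was at 0.0982 and 0.0616 CPM in embryo 2 and at 0.507 and 0.481 CPM in embryo 9. *Marco*, *Fcna* and *Cd5l* were higher at S3 in both embryos, with no overlap between the stages, an order found in 33.8% of all genes. *Mrc1* and *Ctsh* were lower in both, *Ctsh* without overlap, as 44.2% of all genes were. The median over 9 members was 1.59 on the TMM scale and 0.65 with total-count scaling. It was 2.96 without the S1 library of embryo 9, 0.90 without the S1 library of embryo 2, and 2.15 and 0.75 without the S3 libraries of embryos 9 and 2.

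**Figure D4:**
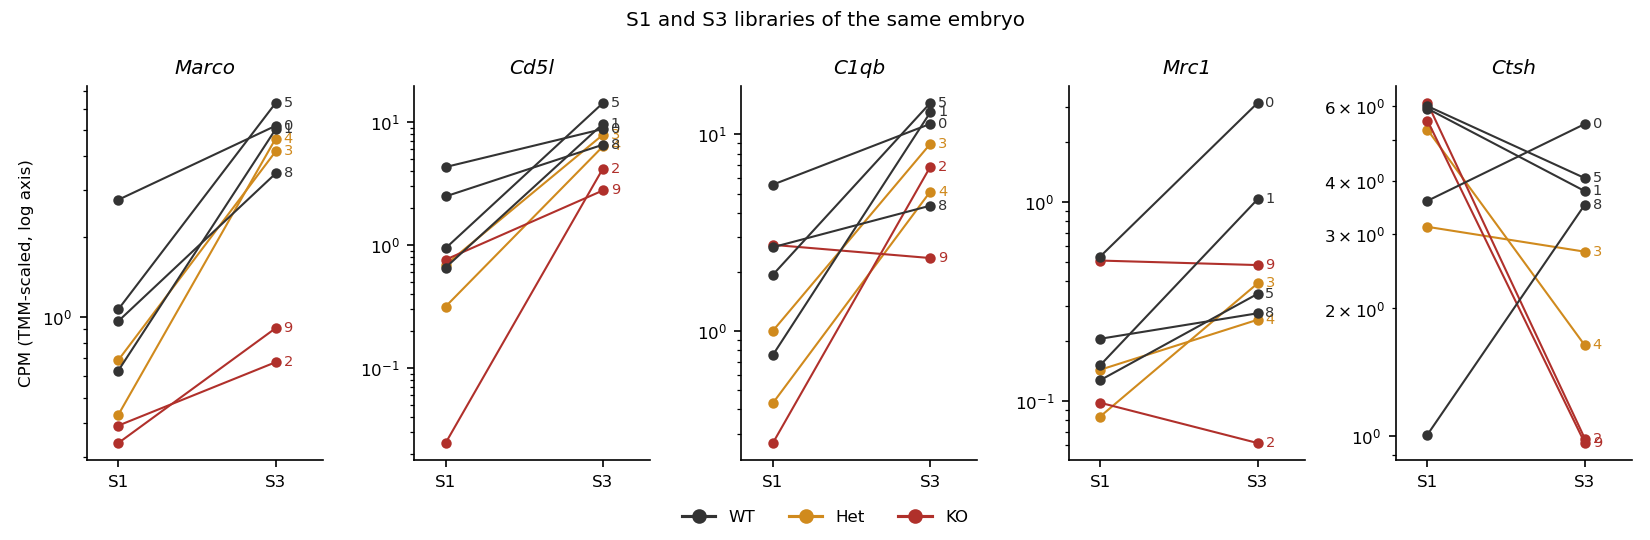
CPM (TMM-scaled, log axes) of 5 members at S1 and S3, with a line for each embryo labelled by its number, in WT (black), Het (orange) and KO (red). *Marco*, *Cd5l* and *C1qb* are higher at S3 in every WT and Het embryo, *C1qb* goes down in KO embryo 9, and *Ctsh* goes down in both KO and both Het embryos.

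The other macrophage genes did not share a single direction between the stages. In WT, 42 of the 56 were tested, of which 16 rose and 10 fell in edgeR, where 35.0% of all genes fell, and in Het 15 of 39 rose and 18 fell. *Hmox1* went from 1.21 to 7.40 CPM at S1 in WT to 19.2 to 34.6 CPM at S3, and *Spic* from 0.0504 to 1.44 CPM to 2.55 to 7.55 CPM. *Csf1r* had 3.51 to 6.21 CPM at S1 and 2.62 to 5.06 CPM at S3, and *Siglec1* stayed at or below 0.187 CPM in WT. The 10 neutrophil genes all fell in WT with a median log2 fold change of −7.80, *Mpo* from 94.6 to 971 CPM to 0.307 to 4.14 CPM. Of the 10 hepatoblast genes 4 rose in WT (median 1.35) and 8 in Het (median 2.52). In WT and Het the members other than *Ctsh* were thus higher at S3, as were the hepatoblast genes that rose, and the part of hepatoblast RNA in this was not tested.

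At S1, *Ctsh* stood apart from the other members across libraries. Over the 8 S1 libraries Pearson's r of log2 CPM between *Ctsh* and the other 9 members ran from −0.53 to −0.077, while the 36 pairs of other members ran from 0.34 to 0.97 with a median of 0.78. WT embryo 8 had both the lowest level of *Ctsh* at S1, 1.01 CPM, and the lowest pan-leukocyte sum, 46.2 CPM, and KO embryo 2 had the highest of both, 6.11 and 247.5 CPM. At S3 the pairs with *Ctsh* ran from 0.52 to 0.94 with a median of 0.81 and the 36 others from 0.16 to 0.96 with a median of 0.76. Among the 36, *Mrc1* with *Adgre1* was the lowest. *Vcam1* ran from 0.21 with *C1qc* and 0.22 with *Adgre1* to 0.83 with *Mrc1*. The choice of all 10 members by their S3 values bears on these correlations at S3, and nothing is read from them. The 3 C1q pairs had r between 0.92 and 0.97 at S1 and between 0.90 and 0.96 at S3. These values describe 8 libraries that share genotypes, depth and the differences in other cells given above.

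The 10 genes whose levels over the 8 S3 libraries were most like the mean of the members, among 11758 compared, were *Cd300a* (r = 0.997), *Hpcal1* (0.99), *Kansl2-ps*, *Aldh7a1*, *Fabp1*, *Uap1l1*, *Lgals3*, *Nfam1*, *Cd302* and *Cep72* (0.96). The median r over all genes compared was 0.13. The ranking takes the top of many genes over 8 libraries and uses the S3 values that chose the members, so nothing is read from it. Of these 10, 0 were among the 56 other macrophage genes. *Cd300a* and *Nfam1* encode receptors of myeloid cells and *Lgals3* encodes galectin 3, abundant in macrophages, whereas *Fabp1* encodes the fatty acid binding protein of hepatocytes. Over the 8 S1 libraries the same correlation ran from −0.73 in *Nfam1* to 0.82 in *Fabp1* and was −0.56 in *Cd300a*.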

How the data were processed

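S1 and S3 erythroblasts of 8 foetal livers gave 16 libraries, with groups, embryo numbers and sex taken from the labels. RNA was amplified (SMARTer) and polyA-enriched. Per the labels, the authors aligned reads to mm39 with STAR 2.7.9 and obtained counts of read pairs for Ensembl genes with featureCounts 1.6.4, ignoring strand and discarding multi-mapping reads and those shared by genes, and deposited these raw counts. Of 55416 genes, 54749 were matched to GENCODE symbols. A further 4 library columns matched no sample and were not used.

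Counts were tested with edgeR 4.0.16 (TMM, glmQLFit and glmQLFTest) in R 4.3.3, keeping genes whose normalized count averaged above 10 in the libraries compared, with Benjamini-Hochberg adjustment at 0.05. The standard error is the size of the log2 fold change divided by the square root of F. The alternatives were DESeq2 1.42.0, RLE and upper-quartile scaling, no filter, all 16 libraries in the fit, sex as a covariate, the embryo as a block between stages, and leaving out each library. Scaling by total counts and leaving out WT embryos 0 and 8 at S1 were added after the data were seen. Scripts were tested on simulated counts. Depth per library, 20666044 to 37609502 counts, limits members of few reads, and groups of 2 embryos limit precision as well.

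Same-numbered S1 and S3 libraries came from the same embryo, per the labels. Over 13402 genes, the deviations of same-numbered libraries from their group means correlated at 0.064, 0.19, 0.28 and 0.27 in WT embryos 0, 1, 5 and 8, 0.35 in KO and 0.036 in Het.

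The members and gene lists were chosen with earlier results of these data known. Genes named are the members, macrophage markers from a list by role, those of that list past the threshold, the 2 most abundant of each other list (the erythroid list excepted), partners on the erythroblast side and the 10 most similar genes over S3 libraries. Gene lists hold textbook markers, and the erythroid list is given without 1 gene that is not reported here. Promoters are from RefSeq (GRCm38.p6), a different build from the counts, and only their own coordinates are given.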

Additional observations from a re-analysis of the deposited data

Results flagged for a closer look

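*C1qc* at S1 was 5.06 CPM in WT embryo 0, far from the other 3 WT libraries at 0.908 to 1.603 CPM, with a gap of 0.833 of the group's range by Dixon's test. This was 1 of 20 groups of WT libraries tested, and chance flags about 1 in 20 groups. The same library was the highest of the S1 libraries in 9 of the 10 members.

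*Mrc1* was higher at S3 than at S1 in 4 of 4 WT embryos and in 2 of 2 Het embryos, and lower in 2 of 2 KO embryos. The difference between the genotypes was not tested. The KO change was from 4 reads to 1 in embryo 2 and from 0.507 to 0.481 CPM in embryo 9, and the direction is that of the TMM scale.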

How the results depend on the processing

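With a single library left out, the median log2 fold change of the members in KO against WT at S3 ran from −1.999 to −1.37, and between the stages in KO from 0.75 to 2.96. The count of other macrophage genes called in KO against WT at S3 was 1, and 0 with RLE, upper-quartile or total-count scaling, with all 16 libraries in the fit or without any 1 library, 5 without the filter, 6 with DESeq2 and 8 with sex as a covariate; the cause was not tested. Sex as a covariate also gave 2 members called in Het against WT at S3 and 2 at S1. Shares of all genes called were counted for the main fits only, so nothing is read from the counts under other settings. Members called between the stages in WT were 9, 6 to 9 with 1 library left out (6 without the S1 library of embryo 5) and 1 with total-count scaling. With the embryo as a block, 9 members were called in WT and 9 in Het, and no call on the members was changed there.

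Directions were reversed as follows, in members with no call. In KO against WT at S1, without WT embryos 0 and 8, *C1qa* was 0.076, *C1qb* 0.21, *Adgre1* 0.17 and *Ctsh* −0.016, and *Vcam1* was −0.0017 with DESeq2, −0.0005 with RLE scaling and −0.011 with all 16 libraries; with 1 library left out *C1qb* ran from −3.34 to 0.017, *Adgre1* from −0.49 to 0.048 and *Vcam1* from −0.72 to 0.47. In Het against WT at S3, with sex as a covariate *Marco* was 0.045, *C1qc* 0.16 and *Adgre1* 0.40; with 1 library left out *Marco* ran from −0.24 to 0.0037, *C1qc* from −0.71 to 0.34 and *Adgre1* from −0.45 to 0.095. In Het against WT at S1, *Ctsh* was −0.50 without WT embryos 0 and 8, −0.034 with total-count scaling and ran from −0.40 to 0.36 with 1 library left out. Between the stages in WT, *Ctsh* was −0.41, −0.89 and −0.079 without these embryos, with total-count and with upper-quartile scaling, and ran from −0.20 to 0.35 with 1 library left out. Where a library left out leaves 1 in a group, that library is assumed to vary like the others.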
